A study of Mus musculus with 15 samples.

Results

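Dnase1l3, Atp8a2, Pde3b, Slc16a5 and Tubb2b were followed as 5 genes that responded strongly to active Notch1 in regulatory T cells (Treg) and stand outside the canonical list of Notch targets (15 genes, among them Hes1, Hey1, Heyl, Nrarp and Dtx1). They were chosen from 19752 genes for a mean more than 2 log2 units higher with active Notch1, or lower by as much when Rbpj was deleted from such cells. Those 2 contrasts therefore describe the choice and were not tested here. All 5 met both conditions; 12 genes in all did so and 23 met either.

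The Treg came from spleens of 6-week-old male mice, sorted as GFP-bearing CD4 T cells, where GFP reports Foxp3. Every group, the controls included, carried Foxp3EGFPCre, so that Cre acted in cells that express Foxp3. The N1c_RBPJdel group (Foxp3EGFPCreR26N1c/N1cRBPJ∆/∆, 3 arrays) carried active Notch1 together with the deletion of Rbpj. The N1c group (Foxp3EGFPCreR26N1c/N1c, 4 arrays) carried active Notch1 alone, the RBPJdel group (Foxp3EGFPCreRBPJ∆/∆, 4 arrays) the deletion alone, and the control group (Foxp3EGFPCre, 4 arrays) neither. Each array measured 40000 to 50000 cells from a pool of mice. A FACSAria sorted the N1c_RBPJdel cells and a MoFlo those of the other groups, so that sorter and genotype cannot be told apart in comparisons of that group.

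Notch is a receptor that is cut when it meets its ligand on a neighbouring cell. The freed intracellular part enters the nucleus, binds the DNA-binding protein RBPJ and recruits coactivators, while RBPJ without Notch can hold target genes in a repressed state. The 5 genes encode unrelated proteins. DNASE1L3 is a secreted endonuclease that digests DNA in chromatin and in the debris of dying cells, and its loss leads to antibodies against DNA in mice and people. ATP8A2 is a flippase that moves phosphatidylserine to the inner leaflet of membranes. PDE3B hydrolyses cyclic AMP, and its gene is known as one that Foxp3 represses in Treg. SLC16A5 belongs to the monocarboxylate transporter family. TUBB2B is a beta tubulin best known from neurons.

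Values are RMA intensities of 1 transcript cluster per gene, which is the set of array probes along its exons. Intensities of different probe sets are not comparable as levels, so each gene is set against itself across groups. On the 15 arrays the median intensity lay between 107.1 and 117.2. Rbpj had intensities of 175 to 258 on N1c_RBPJdel arrays, 489 to 572 on N1c arrays, 225 to 294 on RBPJdel arrays and 470.3 to 571 on control arrays. Neither deleted group overlapped a group with intact Rbpj. Notch1 had 896 to 1239 on N1c_RBPJdel arrays, 1019.8 to 1582 on N1c arrays, 1211 to 1613 on RBPJdel arrays and 836 to 1443 on control arrays. Its log2 difference was 0.030 between N1c and control and -0.40 between N1c_RBPJdel and RBPJdel, with arrays that overlapped in both. The Notch1 probes thus showed no rise with the added active Notch1, and the reason was not tested. Differences are given between group means of log2 intensity with the standard error (SE) of the limma fit to all 15 arrays. As a guide to background, 1194 olfactory and vomeronasal receptor genes were used, which T cells are not known to express. Their 95th percentile lay between 68.2 and 99.0 depending on the array. Where a whole group lay under it, the fold is given as a lower bound, with each array of that group set to that percentile, and the difference of the measured means is a description of dim signals.

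Dnase1l3 (transcript cluster 10417526, chromosome 14) had intensities of 42.7, 67.4 and 36.6 on the N1c_RBPJdel arrays 1, 2 and 3. It had 565, 329.8, 312 and 465 on the N1c arrays 1, 2, 4 and 5. The RBPJdel arrays 1 to 4 gave 41.1, 36.2, 35.6 and 37.1, and the control arrays 2 to 5 gave 39.8, 35.1, 34.2 and 39.9. The N1c arrays stood above all 11 others without overlap, and N1c_RBPJdel array 2 was the brightest of the rest. The difference was 3.45 ± 0.18 between N1c and control (SE, n = 4 and 4), at least 5.53-fold higher, and -3.10 ± 0.20 between N1c_RBPJdel and N1c (n = 3 and 4). Outside N1c, each of the 11 arrays lay under the 95th percentile of the silent genes on the same array and above their median.

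Atp8a2 (10420532, chromosome 14) had 73.3, 76.4 and 88.5 on N1c_RBPJdel arrays and 675, 799, 653 and 500.2 on N1c arrays. It had 75.8, 70.1, 65.1 and 67.5 on RBPJdel arrays and 68.5, 70.1, 70.3 and 63.2 on control arrays. Of the 5 genes it had the smallest standard error in both contrasts, with 3.25 ± 0.12 between N1c and control and -3.03 ± 0.13 between N1c_RBPJdel and N1c. N1c stood at least 8.82-fold above control. All 8 arrays of RBPJdel and control and 2 of the 3 N1c_RBPJdel arrays lay under the 95th percentile of the silent genes.

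Pde3b (10556528, chromosome 7) had 100.2, 68.9 and 65.4 on N1c_RBPJdel arrays and 1148, 375, 484 and 456 on N1c arrays. It had 52.0, 52.4, 47.5 and 52.3 on RBPJdel arrays and 55.4, 50.6, 68.9 and 76.5 on control arrays. The first N1c array was brighter than the other 3 N1c arrays, which lay within 375 to 484. The difference was 3.16 ± 0.25 between N1c and control, at least 7.56-fold higher, and 2.81 without that array. All 8 arrays of RBPJdel and control and 2 of the 3 N1c_RBPJdel arrays lay under the 95th percentile of the silent genes. Between N1c_RBPJdel and N1c it was -2.86 ± 0.27, and -2.51 without that array. Foxp3 had 4018 to 4865 on N1c arrays and 4761 to 5331 on control arrays, a difference of -0.20 ± 0.12 that did not pass the test (limma, adjusted p = 0.843). The 95% interval ran from -0.45 to 0.057, and the part of Foxp3 in the Pde3b difference was not tested.

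Slc16a5 (10382532, chromosome 11) had 84.4, 90.7 and 72.0 on N1c_RBPJdel arrays and 597, 499, 448 and 285 on N1c arrays. It had 52.6, 62.1, 64.3 and 61.5 on RBPJdel arrays and 79.7, 58.9, 87.1 and 78.3 on control arrays. N1c array 5 was the lowest of its group here and for Atp8a2, while for Tubb2b it was the highest. The difference was 2.55 ± 0.18 between N1c and control, or 5.87-fold higher, and -2.43 ± 0.19 between N1c_RBPJdel and N1c. Under the 95th percentile of the silent genes lay 2 of the 3 N1c_RBPJdel arrays, all 4 RBPJdel arrays and 2 of the 4 control arrays.

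Tubb2b (10408613, chromosome 13) had 179, 126 and 130.1 on N1c_RBPJdel arrays and 892, 816, 1082 and 1173 on N1c arrays. It had 98.7, 144, 147 and 175 on RBPJdel arrays and 203, 171, 199 and 262 on control arrays. It was the only one of the 5 with every array above the 95th percentile of the silent genes. The difference was 2.25 ± 0.18 between N1c and control, or 4.76-fold higher, and -2.77 ± 0.19 between N1c_RBPJdel and N1c. The second difference was thus the larger in measured size, which held for none of the other 4 genes.

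**Figure D1:**
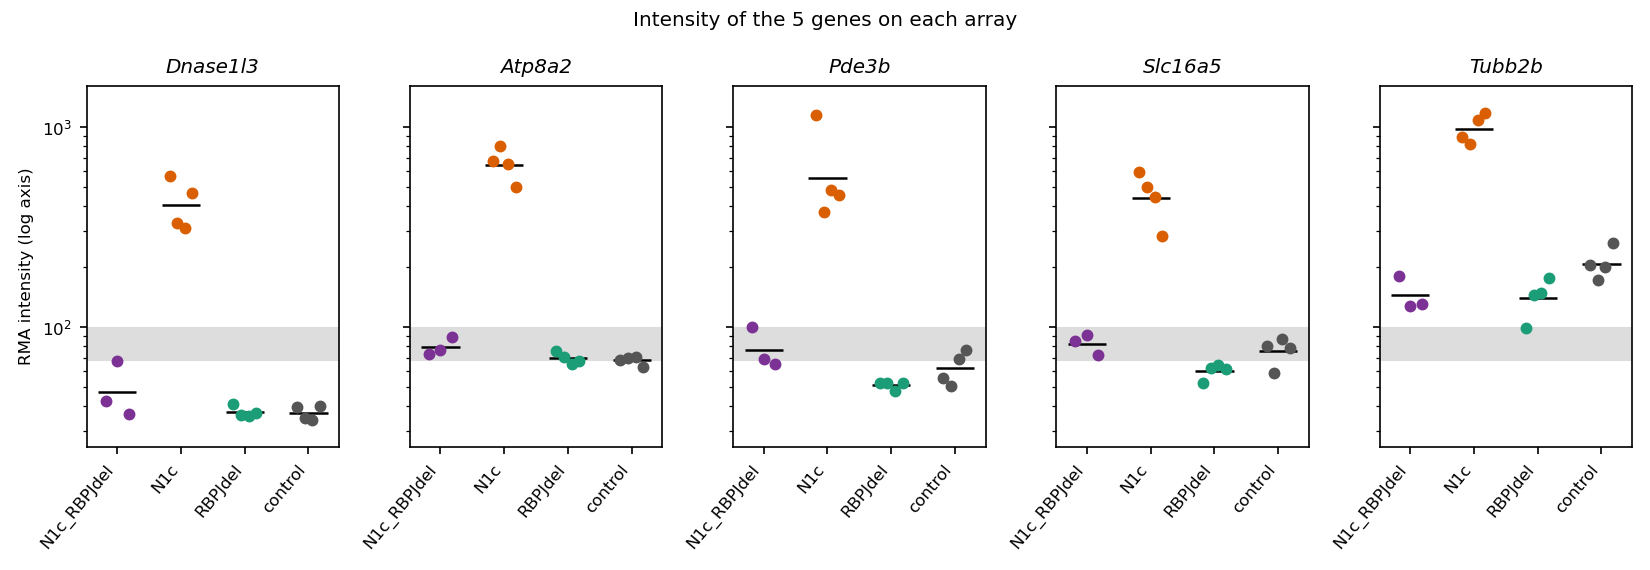
Intensity on a log axis of each of the 5 genes on the 15 arrays, by group; points are arrays, black lines are geometric means, and the grey band spans the 95th percentile of the silent genes over the arrays (68.2 to 99.0). The 4 N1c arrays stand above all others in every panel, and Tubb2b alone stays above the 95th percentile of the silent genes on each array.

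By the choice of the genes, all 5 stood more than 2 log2 units higher in N1c than in control, as did 0.0709% of all genes, and more than 2 lower in N1c_RBPJdel than in N1c, as did 0.106%. The arrays of all 5 did not overlap in either contrast, which was so for 2.9% of all genes in the first, with N1c higher, and for 8.42% in the second, with N1c_RBPJdel lower. Nearest to the threshold inside it in N1c against control were Marcks (2.18), Gjb2 (2.18) and Fhdc1 (2.21), with Tubb2b (2.25) the nearest of the 5. Just outside stood Gzmb (1.93) and Cst7 (1.92). In N1c_RBPJdel against N1c, Slc16a5 (-2.43) was the nearest of the 5, Mir30e (-2.01) was the nearest gene inside and Mir15b (-1.98) the nearest outside. The other genes past both thresholds were Cd22, Fhdc1, Gjb2, Hes1, Heyl, Il10 and Prag1. Of these, only Hes1 and Heyl are on the canonical list, so the 5 are not all the genes outside it that met both conditions. Cd22 had larger differences (4.00 and -3.27) than any of the 5. With 3 or 4 arrays of pooled cells per group, a change in the share of cells that express a gene and a change in RNA per cell cannot be told apart.

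Set against control, N1c_RBPJdel kept little of the N1c difference. Dnase1l3 stood 0.35 log2 units above control in N1c_RBPJdel, which is 10.1% of its N1c difference on that scale. The value was 0.22 for Atp8a2 (6.74%), 0.31 for Pde3b (9.69%) and 0.12 for Slc16a5 (4.89%). Tubb2b stood at -0.52, below control. N1c_RBPJdel and control arrays did not overlap for Atp8a2, as was so in that direction for 9.11% of all genes, and overlapped for the other 4. As a share of the N1c intensity itself, the N1c_RBPJdel intensity was 11.6% for Dnase1l3, 12.2% for Atp8a2, 13.8% for Pde3b, 18.6% for Slc16a5 and 14.6% for Tubb2b. These shares follow from the contrasts that chose the genes, rest largely on dim signals for all but Tubb2b, and are a description. Single arrays decided several of the differences from control. That of Dnase1l3 was 0.090 without N1c_RBPJdel array 2 and 0.53 without array 3, and that of Atp8a2 was 0.14 without N1c_RBPJdel array 3. That of Pde3b was 0.11 without N1c_RBPJdel array 1, and that of Slc16a5 ran from 0.0072 without control array 3 to 0.22 without N1c_RBPJdel array 3.

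RBPJdel against control asked whether the 5 genes depend on RBPJ in Treg without added Notch1. The RBPJdel arrays took no part in the choice of the genes, and the control arrays did. None of the 5 passed the test (limma, adjusted p under 0.05), as 0.111% of all genes did, and Tubb2b alone had an unadjusted p under 0.05, as 6.74% of all genes did. Tubb2b had 98.7 to 175 on RBPJdel arrays and 171 to 262 on control arrays, with a single RBPJdel array reaching into the control range. Its difference was -0.57 ± 0.18 (SE, n = 4 and 4), with a 95% interval of -0.95 to -0.20. By limma its unadjusted p was 0.00452 and its adjusted p 0.494. Slc16a5 had a difference of -0.33 (interval -0.70 to 0.046; adjusted p = 0.784) and Pde3b of -0.28 (-0.81 to 0.25; adjusted p = 0.884). Dnase1l3 had 0.011 (-0.38 to 0.40; adjusted p = 0.996) and Atp8a2 0.033 (-0.22 to 0.28; adjusted p = 0.986). RBPJdel and control arrays overlapped for all 5, where 5.89% of all genes did not overlap. In exact two-sided permutation tests over the 70 arrangements of the arrays, p was 0.0571 for Tubb2b and 0.114 to 0.914 for the others, where 0.0286 is the smallest the design allows. For Dnase1l3, Atp8a2 and Pde3b all control arrays lay between the median and the 95th percentile of the silent genes, which leaves limited room to measure a lower level.

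N1c_RBPJdel against RBPJdel asked whether active Notch1 moves the genes where Rbpj is deleted in both groups. The RBPJdel arrays again took no part in the choice, and the N1c_RBPJdel arrays did. None of the 5 passed the test (limma), as 2.29% of all genes did, and Pde3b and Slc16a5 had an unadjusted p under 0.05, as 21.2% of all genes did. Pde3b had 65.4 to 100.2 on N1c_RBPJdel arrays and 47.5 to 52.4 on RBPJdel arrays, a difference of 0.59 ± 0.27 (95% interval 0.015 to 1.16, n = 3 and 4; adjusted p = 0.225). Slc16a5 had 72.0 to 90.7 on N1c_RBPJdel arrays and 52.6 to 64.3 on RBPJdel arrays, a difference of 0.45 ± 0.19 (0.049 to 0.86; adjusted p = 0.185). For both genes the groups did not overlap, with N1c_RBPJdel above RBPJdel, as was so for 7.38% of all genes, and the exact two-sided permutation p was 0.0286, the smallest that 35 arrangements can give. All 4 RBPJdel arrays and 2 of the 3 N1c_RBPJdel arrays of both genes lay under the 95th percentile of the silent genes, so that these are differences between dim signals. In the same comparison 2 of 9 B cell markers (Cd79a and Ms4a1) and 2 of 6 neutrophil markers (Ngp and S100a9) passed the test as higher in N1c_RBPJdel, and their part in the values was not tested. Dnase1l3 had a difference of 0.34 (-0.081 to 0.75; adjusted p = 0.344), which was 0.079 without N1c_RBPJdel array 2. That array had an Rbpj intensity of 258, against 175 and 201 on N1c_RBPJdel arrays 1 and 3, and the part of residual Rbpj in the value was not tested. Pde3b was brightest on N1c_RBPJdel array 1, where Rbpj was lowest, and a link to Rbpj was not tested for Pde3b either. Atp8a2 had a difference of 0.19 (-0.084 to 0.46; adjusted p = 0.421) and Tubb2b of 0.051 (-0.35 to 0.45; adjusted p = 0.903).

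**Figure D2:**
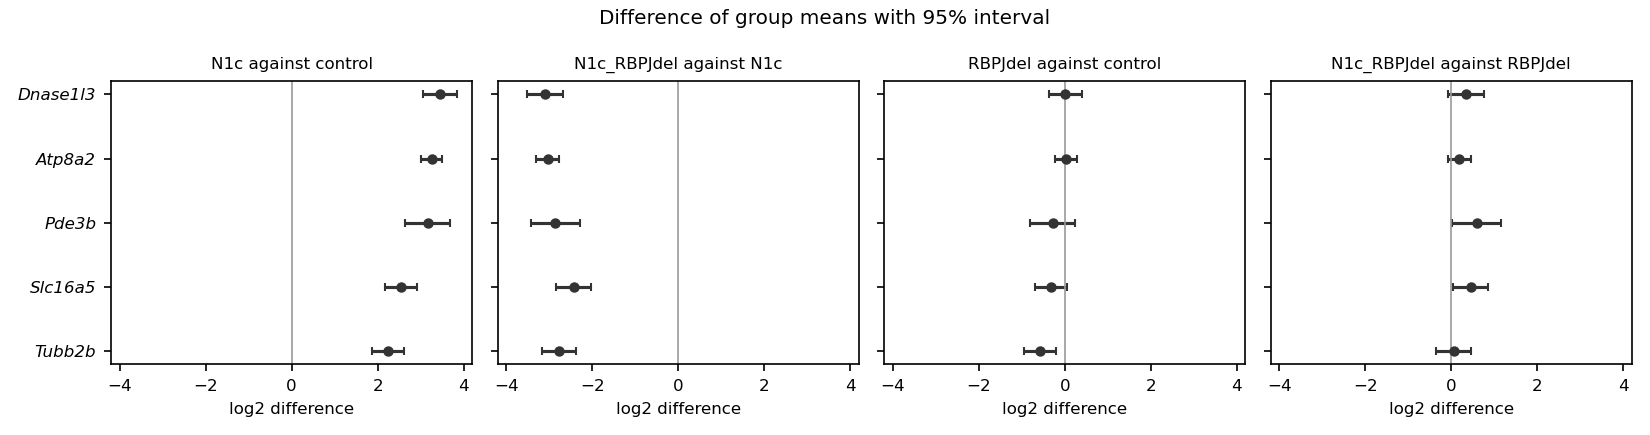
Differences of group means of log2 intensity for the 5 genes in 4 comparisons (points) with the 95% interval of the limma fit (bars). The left 2 panels are the contrasts that chose the genes; in the right 2 panels the differences run from -0.57 to 0.59.

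The order of the group means was N1c first for all 5 genes, and the order of the other 3 groups varied. For Dnase1l3, Atp8a2, Pde3b and Slc16a5 the N1c_RBPJdel mean came next. Below it, RBPJdel and control followed for Dnase1l3 (37.4 in RBPJdel and 37.2 in control) and Atp8a2 (69.5 in RBPJdel and 68.0 in control), which differed by less than the spread between arrays. For Pde3b (51.0 in RBPJdel and 62.0 in control) and Slc16a5 (59.9 in RBPJdel and 75.2 in control) RBPJdel stood last, with arrays that overlapped. For Tubb2b control stood second with 206, and N1c_RBPJdel (143) and RBPJdel (138) lay within 0.051 log2 units of each other.

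Within the N1c group the brightest array was not the same for all 5 genes. N1c array 1 was the brightest for Dnase1l3, Pde3b and Slc16a5, array 2 for Atp8a2 and array 5 for Tubb2b. The brightest N1c array exceeded the dimmest 3.06-fold for Pde3b, 2.10-fold for Slc16a5, 1.81-fold for Dnase1l3, 1.60-fold for Atp8a2 and 1.44-fold for Tubb2b. In RBPJdel the same ratio was 1.10 for Pde3b, 1.22 for Slc16a5, 1.15 for Dnase1l3 and 1.16 for Atp8a2, all dim there, and 1.78 for Tubb2b.

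The genes of most similar profile were sought among the 19752, with the root mean square distance over the 15 arrays as the measure. Each gene was first set to its own control mean. Left out were predicted and mitochondrial genes, microRNAs, small RNAs, olfactory and vomeronasal receptor genes and antigen receptor gene segments. The distance includes the arrays that chose the 5 genes, so that genes with large differences in both of those contrasts lie near each other by the choice itself. Dnase1l3 lay nearest to Atp8a2 (0.36 log2 units) and Pde3b (0.39), and then to Hes1 (0.43), the repressor that is the best known direct Notch target. The median distance of Dnase1l3 to all genes was 1.82. Atp8a2 lay nearest to Dnase1l3, Heyl (0.42) and Hes1 (0.44). Pde3b had Dnase1l3, Atp8a2 (0.45) and Slc16a5 (0.46) as its neighbours, all among the 5. Slc16a5 lay nearest to Marcks (0.37), which encodes an actin-binding substrate of protein kinase C, and to the repressors Hey1 (0.38) and Heyl (0.39).

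Tubb2b had other neighbours, which were Gjb2 (0.37), the gene of a gap junction connexin, Naip5 (0.41), the gene of an inflammasome receptor for bacterial flagellin, and Tubb2a (0.42). The distance of Tubb2b to Slc16a5 was 0.50, to Pde3b 0.74, to Atp8a2 0.78 and to Dnase1l3 0.87. Of its 3 neighbours, 2 passed the test in RBPJdel against control, where 0.111% of all genes did. The arrays of that comparison were also part of the distance. As Tubb2b too had a lower mean in RBPJdel, these calls follow in part from the choice of neighbours and are a description. Naip5 fell by 1.01 (92.6 in RBPJdel and 186 in control; adjusted p = 0.00172, limma) and Gjb2 fell by 0.88 (72.2 in RBPJdel and 133 in control; adjusted p = 0.0140). The call of Gjb2 was lost without any 1 of RBPJdel arrays 1, 3 and 4 and control arrays 2 and 5 (adjusted p = 0.054 to 0.0725; 0.000243 to 0.0725 over the alternatives). Tubb2a had a difference of -0.39 in RBPJdel against control (adjusted p = 0.688). Naip5 can share probe signal with its close relatives.

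**Figure D3:**
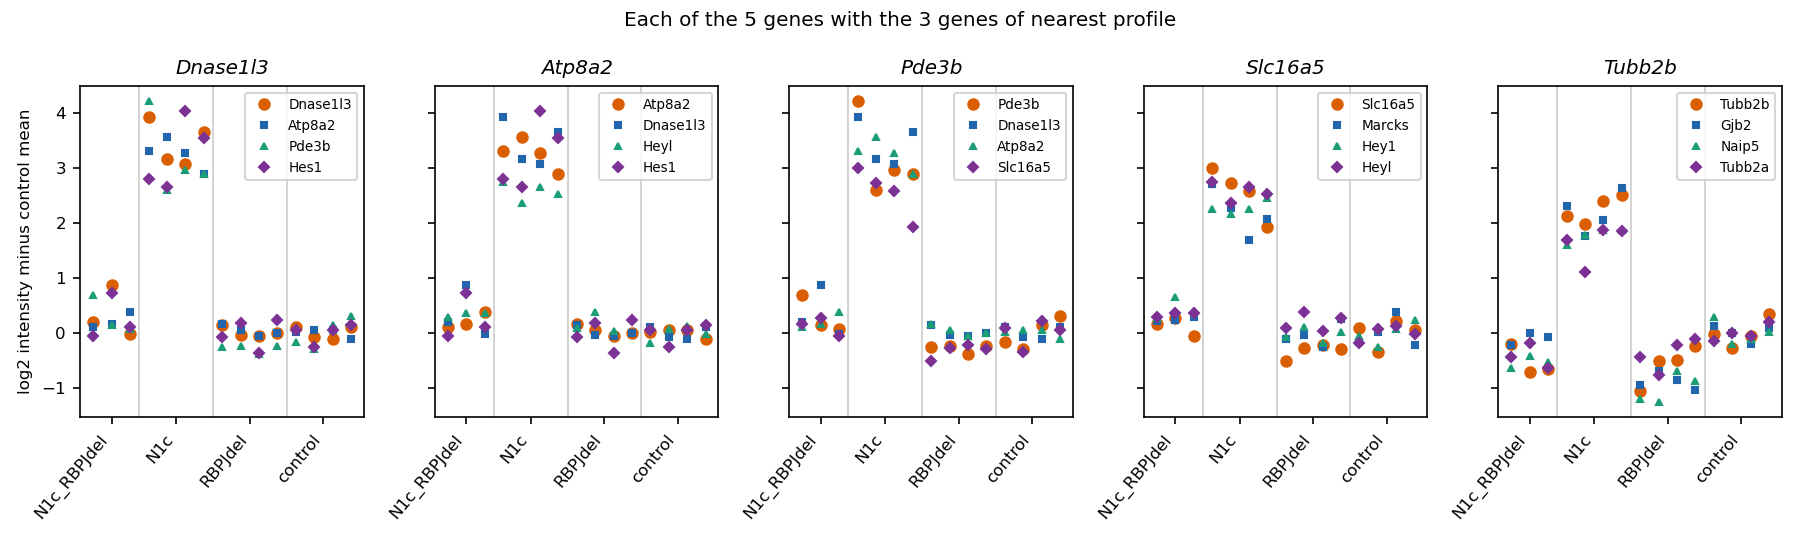
log2 intensity minus the control mean for each of the 5 genes (large orange circles) and the 3 genes of nearest profile (small symbols) on the arrays of the 4 groups. In the Tubb2b panel the RBPJdel arrays of Tubb2b, Gjb2, Naip5 and Tubb2a all lie below 0. In the Dnase1l3 panel those of Pde3b lie below 0 as well, and in the Atp8a2 panel those of Heyl lie above 0.

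Tubb2a is the closest relative of Tubb2b and the nearest measured protein-coding gene on one side of it on chromosome 13 (gene order of GRCm38.p6). Tubb2a had 211, 249.7 and 183 on N1c_RBPJdel arrays, 918, 613, 1045 and 1022 on N1c arrays, 211, 167, 244 and 265 on RBPJdel arrays and 259, 285, 274 and 328 on control arrays. It rose by 1.63 ± 0.17 in N1c against control (adjusted p = 1.38e-05) and fell by 2.05 ± 0.18 in N1c_RBPJdel against N1c (adjusted p = 1.69e-06). A further transcript cluster, which names Tubb2b, Tubb2a and a Tubb2a pseudogene together and entered no test, averaged 88.3 in N1c_RBPJdel, 259 in N1c, 91.9 in RBPJdel and 106 in control. Probes of such similar genes can bind each other's RNA, and how much of the Tubb2a or Tubb2b signal comes from the other gene was not tested.

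The families of the 5 genes were examined as lists of nucleases, flippases and scramblases, cyclic nucleotide phosphodiesterases, cyclic AMP makers and effectors, monocarboxylate transporters and tubulins, without the 5 genes. Together they held 116 measured genes. In N1c against control 2 of the 116 passed the test (1.72%), where 1.65% of all genes did. These were Tubb2a and Atp10d, a flippase, which fell by 0.66 (683 in N1c and 1079 in control; adjusted p = 0.000252). None of 13 nucleases, 23 phosphodiesterases, 23 cyclic AMP genes and 16 monocarboxylate transporter genes passed (limma; 9 of these 75 had an unadjusted p under 0.05), and 1 of 20 flippase and scramblase genes and 1 of 21 tubulin genes did. The medians of the 6 lists lay between -0.10 and 0.061, and that of all genes was -0.0063. Of the canonical Notch targets, for comparison, 6 of 15 rose and 1 fell. The fall, of Myc (adjusted p = 0.0496), was lost under 11 of the 23 alternatives (up to 0.174), and the rise of Hey2 (adjusted p = 0.0191) under 5 (up to 0.0838).

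In N1c_RBPJdel against N1c 7 of the 116 family genes passed (6.03%), where 9.23% of all genes did. Atp10a, a flippase gene, fell by 0.50 (325 in N1c_RBPJdel and 458 in N1c; adjusted p = 0.00550), and this call and that of Tubb2a held under all alternatives run. Slc16a1, which encodes the lactate transporter MCT1, fell by 0.57 (200.1 in N1c_RBPJdel and 297 in N1c; adjusted p = 0.0231), Dffb, which encodes the nuclease that cuts DNA in apoptosis, fell by 0.55 (121 in N1c_RBPJdel and 177 in N1c; adjusted p = 0.0318), and Atp8a1, the closest relative of Atp8a2, fell by 0.32 (544 in N1c_RBPJdel and 677 in N1c; adjusted p = 0.0451). The scramblase-family gene Plscr1 rose by 0.41 (628 in N1c_RBPJdel and 473 in N1c; adjusted p = 0.0262) and Tuba8 by 0.34 (149.5 in N1c_RBPJdel and 119 in N1c; adjusted p = 0.0458). Each of these last 5 calls was lost under at least 4 of the 23 alternatives, among them the fit without N1c_RBPJdel array 1 and that of the 2 groups alone (highest adjusted p 0.106 to 0.233). In RBPJdel against control 0 of the 116 passed in limma, where 0.111% of all genes did. An unadjusted p under 0.05 was found for 9 of them, and for 6.74% of all genes. In N1c_RBPJdel against RBPJdel 3 passed (2.59%), where 2.29% of all genes did. Of these 3, Plscr1 rose by 0.51 (adjusted p = 0.0261) and Tubb1 fell by 0.47 (adjusted p = 0.0234). Prkar1b, which encodes a regulatory subunit of protein kinase A, fell by 0.42 (adjusted p = 0.0317). All 3 calls were lost when the 2 groups were fitted alone, and without N1c_RBPJdel array 1, RBPJdel array 1 or RBPJdel array 2 (highest adjusted p 0.0884 to 0.134).

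**Figure D4:**
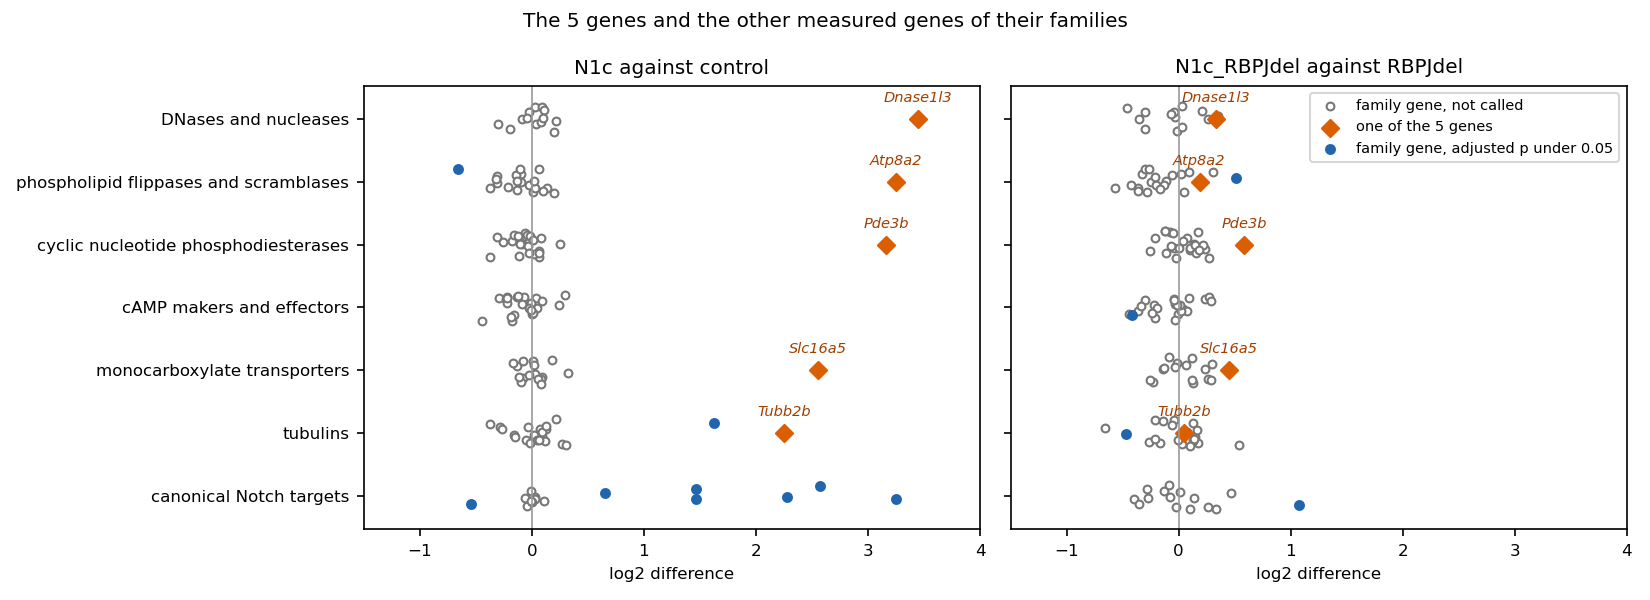
Differences of group means of log2 intensity for the 5 genes (diamonds) and the other measured genes of their families and of the canonical Notch list (circles, filled where the adjusted p was under 0.05), in N1c against control and in N1c_RBPJdel against RBPJdel. The legend counts the Notch list among the family genes. In N1c against control Hes1 (3.25), Heyl (2.57) and Hey1 (2.27) of that list lie within the range of the 5. Outside that list Tubb2a (1.63) is the family gene nearest to the 5, and the other family genes lie between -0.66 and 0.32.

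The genes that flank the 5 on their chromosomes were looked up after the values had been seen, up to 2 measured protein-coding genes on each side (19 genes). In N1c against control Tubb2a alone passed the test, where 1.65% of all genes did. Beside Dnase1l3, Abhd6 had a difference of -0.13 (456 in N1c and 498 in control; adjusted p = 0.983). Beside Pde3b, Psma1 had 0.29 (1087 in N1c and 892 in control; adjusted p = 0.430) and Cyp2r1 -0.12 (116 in N1c and 126 in control; adjusted p = 1). Beside Slc16a5, Armc7 had 0.31 (682 in N1c and 549 in control; adjusted p = 0.912). In N1c_RBPJdel against N1c 4 of the 19 fell, where 4.65% of all genes did. These were Tubb2a, Nupl1 and Mtmr6 beside Atp8a2 (-0.56 and -0.47) and Copb1 near Pde3b (-0.33). Quantile normalization ended the calls of Nupl1, Mtmr6 and Copb1 (adjusted p = 0.134, 0.0689 and 0.222; 0.00266 to 0.140, 0.00595 to 0.0709 and 0.0245 to 0.230 over the alternatives).

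Dnase1l3 is known from macrophages and dendritic cells, and markers of cells other than Treg were therefore read beside it. Of 10 macrophage and monocyte markers and 10 dendritic cell markers, 0 passed the test in N1c against control in limma, and 0 had an unadjusted p under 0.05, with medians of -0.062 for both lists. The summed intensity of the macrophage and monocyte list ran from 611 to 753 in N1c_RBPJdel, 545 to 754 in N1c, 555 to 658 in RBPJdel and 530.2 to 786 in control. That of the dendritic cell list ran from 903 to 1026 in N1c_RBPJdel, 752 to 1058 in N1c, 800.2 to 918 in RBPJdel and 814 to 961 in control. On these arrays no gene reads 0. The defining markers Csf1r and Adgre1 averaged 49.9 and 25.6 in N1c and 48.9 and 25.9 in control, and Itgax averaged 50.9 in N1c and 50.4 in control, all under the lowest 95th percentile of the silent genes. Of the dendritic cell list, Ccr9 (273 in N1c and 283 in control) and Tcf4 (141 in N1c and 152 in control) averaged above that value. Batf3 (97.6 in N1c and 104 in control), Zbtb46 (82.8 in N1c and 80.6 in control) and Siglech (72.7 in N1c and 76.4 in control) did so as well. Of the macrophage and monocyte list, C1qa averaged 70.7 in N1c, above that value, and 65.8 in control, below it. Cd68, of the same list, averaged 121 in N1c_RBPJdel, 209.8 in N1c, 118 in RBPJdel and 159.5 in control. It was highest in N1c, like the 5 genes, and passed in neither N1c against control (0.39; adjusted p = 0.951) nor N1c_RBPJdel against N1c (-0.80; adjusted p = 0.13). Of 9 measured B cell markers 0 passed in N1c against control in limma, and 0 had an unadjusted p under 0.05. In N1c_RBPJdel against N1c 4 of 9 B cell markers, 2 of 10 macrophage, 1 of 10 dendritic cell and 2 of 6 neutrophil markers were higher, where 4.58% of all genes were. Ms4a1, which encodes CD20, averaged 57.4 in N1c_RBPJdel and 29.3 in N1c. The part of other cells in the N1c and N1c_RBPJdel values of the 5 genes was not tested. The Treg markers Foxp3, Il2ra, Ctla4, Ikzf2 and Cd4 averaged between 1317 and 6411 in each group, and of 9 Treg markers 0 passed in N1c against control in limma (2 had an unadjusted p under 0.05). In N1c_RBPJdel against N1c 1 of the 9 passed, Tnfrsf18, which was higher by 0.52 (limma, adjusted p = 0.0159). That call was lost under 3 of the 23 alternatives (up to 0.102).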

How the data were processed

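The authors deposited 1 table of microarray intensities on a linear scale for 15 Affymetrix Mouse Gene 1.0 ST arrays, and per the submitters' processing notes RMA and Affymetrix Power Tools were used, with no version given. Values ran from 5.61 to 18029.7 and were converted to log2. Of 24922 features, 21425 named 1 gene, 1399 several and 2098 none; 21347 matched RefSeq (GRCm38.p6) by Entrez ID. The brightest feature per gene was kept, giving 19752 genes, with no filter on dim ones. The number of arrays limits the precision.

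A model with 1 mean for each group was fitted over the 15 arrays by limma 3.58.1 under R 4.3.3 (11 residual and 6.15 prior degrees of freedom). P-values are two-sided, adjusted by Benjamini-Hochberg over the 19752 genes of each comparison (threshold 0.05), and measure the spread between arrays of pooled cells, which may be technical. The fit was tested on simulated data. The 5 genes and the lists were chosen with earlier results of these data known. Named beside them were the 3 nearest profiles per gene, the genes next to the threshold, and from each family up to 4 genes past the test per comparison. Predicted and mitochondrial genes, microRNAs (except next to the threshold), small RNAs, olfactory and vomeronasal receptor genes and antigen receptor gene segments were left out. Flanking genes and single markers were chosen after their values were seen.

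Replicate numbers recur across groups. Residuals of arrays with the same number had r = 0.417, 0.341 and 0.497 in N1c and control, which counts as paired, and 0.166, 0.0711 and 0.417 in RBPJdel and control and 0.209, -0.0467 and 0.0541 in N1c_RBPJdel and RBPJdel, which do not. The fit as reported did not use the number in any comparison, including N1c against control. With the number as a block 494 genes passed in N1c against control, in place of 326. Alternatives were other normalizations, a filter on dim genes, the mean of all features, an intensity trend, array weights, the block, the 2 groups alone and leaving out each array.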

Additional observations from a re-analysis of the deposited data

Results flagged for a closer look

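Pde3b on N1c array 1 had an intensity of 1148, far from the other 3 arrays of its group by Dixon's test on the intensities (gap over range 0.858, above 0.829 for 4 arrays) and not on the log2 scale. Pde3b on RBPJdel array 3 had 47.5, where the other 3 RBPJdel arrays lay between 52.0 and 52.4, and was set apart on both scales (0.912 on intensities and 0.915 on log2). The 15 sets of 4 arrays examined on each scale (5 genes in 3 groups) would give such a value by chance in about 1 of 20 sets.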

How the results depend on the processing

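In the contrasts that chose the 5 genes, no difference turned or moved by more than the spread between arrays under the alternatives. N1c against control stayed at 3.29 to 3.57 for Dnase1l3, 3.15 to 3.38 for Atp8a2, 2.81 to 3.35 for Pde3b, 2.41 to 2.76 for Slc16a5 and 2.16 to 2.36 for Tubb2b. None of the 5 passed in RBPJdel against control or in N1c_RBPJdel against RBPJdel under any alternative (limma), with 1 and 2 of the 5 at an unadjusted p under 0.05 in the fit as reported. The lowest adjusted p was 0.0583, for Tubb2b in RBPJdel against control with array weights (up to 0.96 over the alternatives). In RBPJdel against control the sign turned for Dnase1l3 with quantile normalization (-0.032) and cyclic loess (-0.047), and for Atp8a2 with quantile normalization (-0.014) and the replicate block (-0.048). Leaving out single arrays gave -0.034 to 0.045 for Dnase1l3 and -0.0087 to 0.064 for Atp8a2, and -0.11 to 0.17 for Tubb2b in N1c_RBPJdel against RBPJdel. The filter on dim genes removed Dnase1l3. Atp8a2, Pde3b and Slc16a5 stayed in, though their group means outside N1c (51.0 to 82.0) lay below the lowest array median (107.1). Their bright N1c arrays kept them. For these genes the filter thus cannot show whether dim signals matter in RBPJdel against control or N1c_RBPJdel against RBPJdel. The Rbpj call in RBPJdel against control was lost with the mean of its features (adjusted p = 0.32).

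Of 131 genes of the 7 lists, 9 passed in N1c against control (14 with array weights, 7 to 9 without single arrays) and 1 in RBPJdel against control (3 with array weights). In N1c_RBPJdel against N1c 12 passed, 28 with the replicate block, 7 in the 2 groups alone and 7 to 17 without single arrays, with 7 without N1c_RBPJdel 1. In N1c_RBPJdel against RBPJdel 4 passed, 16 with the replicate block and 0 in the 2 groups alone (29 at an unadjusted p under 0.05). Without single arrays 0 to 14 passed, with 0 without RBPJdel 1 (23 unadjusted), 1 without RBPJdel 2, RBPJdel 3 or N1c_RBPJdel 1, 7 without N1c_RBPJdel 3, N1c 5 or control 5, and 14 without N1c_RBPJdel 2. The block rests on numbers that do not pair N1c_RBPJdel with any group, and it changed no call of the 5 genes. The cause of these shifts was not tested.

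Over all genes, N1c against control gave 326 calls, 733 with array weights and 217 without control 4, and RBPJdel against control 22, and 189 with array weights. N1c_RBPJdel against N1c gave 1823, 3699 with the block, 561 in the 2 groups alone, 1187 among brighter genes and 903 to 3058 without single arrays (903 without N1c_RBPJdel 1, 3058 without N1c_RBPJdel 2, 964 without N1c 1 and 932 without N1c 2). N1c_RBPJdel against RBPJdel gave 452, 2107 with the block, 98 in the 2 groups alone, 192 among brighter genes and 76 to 1890 without single arrays (76 without N1c_RBPJdel 1, 1890 without N1c_RBPJdel 2, 121, 112 and 79 without RBPJdel 1, 2 and 3, and 300 without control 3).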
